A study of Homo sapiens with 8 samples.

Results

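The genes bound at their start sites by 2 leukaemia fusion proteins, AML1-ETO and ETO2-GLIS2, were compared after 48 h of induction in 1 human cell line. The members were the 19229 protein-coding genes annotated on chromosomes 1 to 22, of 20176 on all chromosomes. A gene was called bound when the summit (the highest point) of a peak with a −log10 q of at least 10 lay within 1 kb of any of its annotated transcription start sites, and every gene was then bound by both proteins, by AML1-ETO only, by ETO2-GLIS2 only or by neither. The 4 libraries at 48 h, of 8 in the series, were a ChIP library and an input library for each protein.

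U937, a human monoblastic line, had been transduced with a retroviral Tet-inducible vector that encoded either protein with an HA tag at the N-terminus. Clone #4 carried AML1-ETO and clone #14 carried ETO2-GLIS2, so the protein cannot be told apart from the clone. Both received 5 µg/ml doxycycline, and the DNA that anti-HA beads pulled down with the tagged protein was sequenced (ChIP-seq). There was 1 ChIP library for each protein and time, so no difference has a replicate check and none was tested. The peak lists hold no expression values, and the identity of the cells was not checked against marker genes.

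AML1-ETO keeps the Runt domain, with which RUNX1 binds DNA, and joins it to the parts of ETO that bind corepressors and histone deacetylases. ETO2-GLIS2 keeps related domains of ETO2 and joins them to the zinc fingers of GLIS2, which bind a G-rich site. The former is found in acute myeloid leukaemia with granulocytic features, and the latter in acute megakaryoblastic leukaemia of young children. The ETO parts are related but not the same, since ETO2-GLIS2 lacks the last conserved domain of the ETO family, which AML1-ETO keeps. The DNA-binding parts are unlike. The comparison asks which genes the proteins share.

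Of the 19229 genes, 5162 (26.8%) were bound by both proteins, 4089 (21.3%) by AML1-ETO only, 501 (2.61%) by ETO2-GLIS2 only and 9477 (49.3%) by neither. AML1-ETO bound 9251 genes (48.1%) through 7987 promoter peaks, and ETO2-GLIS2 bound 5663 (29.5%) through 4933. Of the genes bound by ETO2-GLIS2, 91.2% (95% interval 90.4 to 91.9) were also bound by AML1-ETO. In the other direction, 55.8% (54.8 to 56.8) of the AML1-ETO genes were also bound by ETO2-GLIS2. The intervals are exact Clopper-Pearson intervals, cover counting error only and treat genes as independent, which those that share a peak are not: 1392 promoter peaks of AML1-ETO and 795 of ETO2-GLIS2 lay at the starts of 2 or more genes.

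The lists differed in length, with 24845 AML1-ETO and 10842 ETO2-GLIS2 peaks past the threshold. Read totals stated by the study are larger for the AML1-ETO library at 48 h than for the ETO2-GLIS2 library, and list length moves with depth and with the yield of the precipitation. The part of depth in the difference was not tested, and a gene without a call may be bound below the threshold. When the 10842 strongest peaks of each list were taken, 4059 genes were bound by both, 1968 by AML1-ETO only and 1604 by ETO2-GLIS2 only. The share of ETO2-GLIS2 genes also bound by AML1-ETO was then 71.7%. At the threshold itself, NAXD and RLF were the AML1-ETO genes just inside, at a −log10 q of 10.0 and 10.1, while NUPR1 and SEC23IP stood just outside at 9.97. For ETO2-GLIS2, MIEN1 and SELENOS stood inside at 10.0 and PKNOX1 outside at 9.91.

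**Figure D1:**
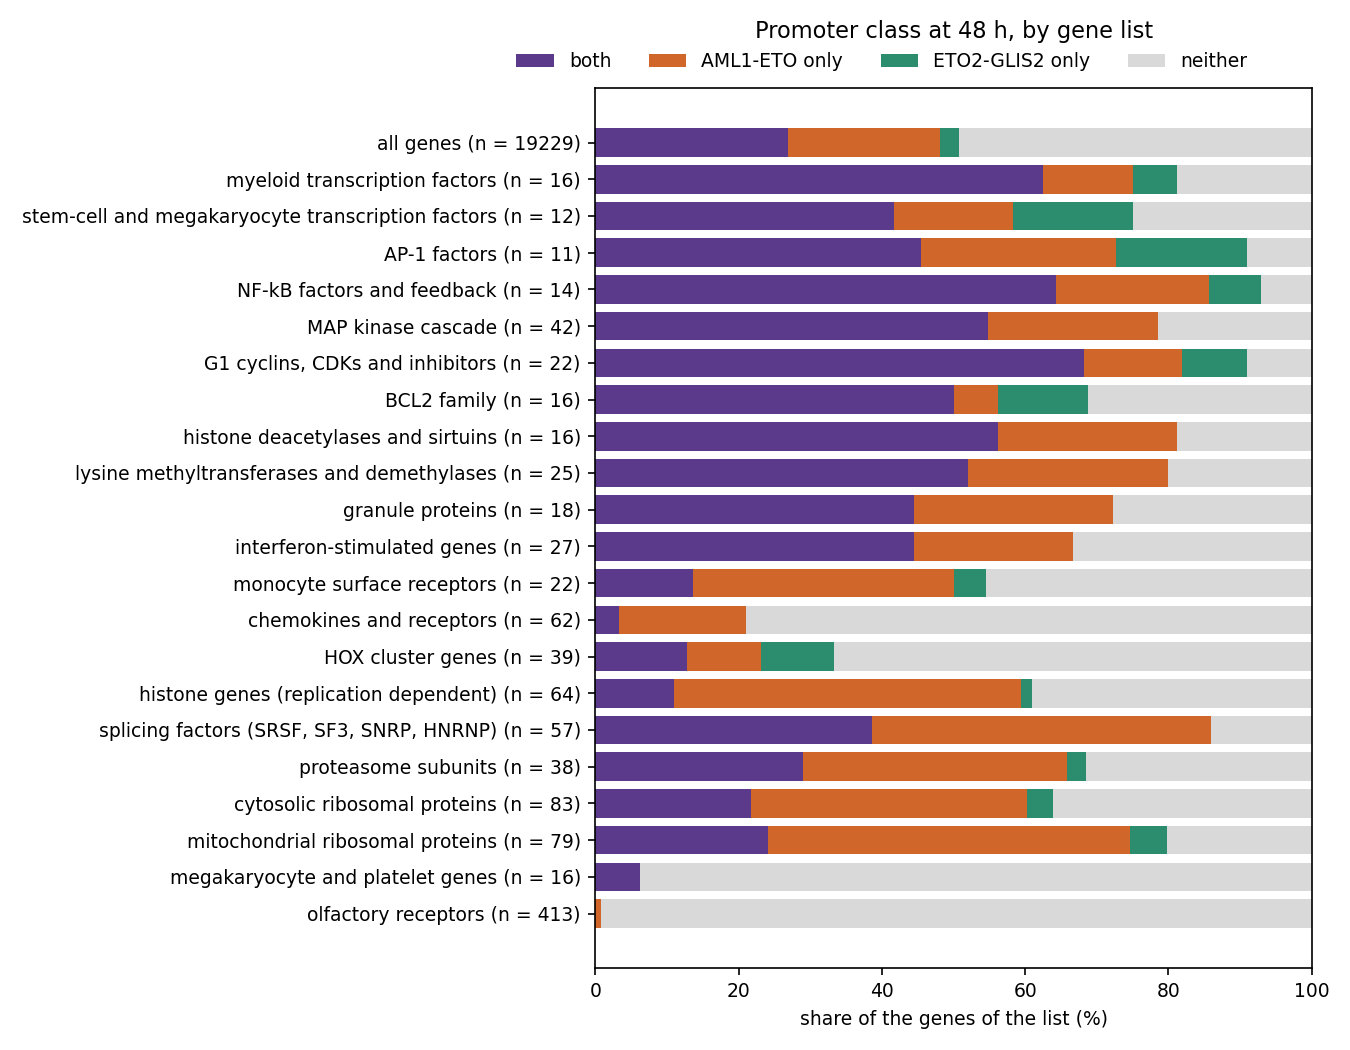
Stacked horizontal bars give the percent of genes bound at 48 h by both proteins, by AML1-ETO only, by ETO2-GLIS2 only and by neither, for all 19229 genes and for 21 gene lists with their sizes. Genes bound by both make up 68.2% of the G1 regulators and 24.1% of the mitochondrial ribosomal proteins, beside 26.8% of all genes. Olfactory receptor genes are bound by neither in 410 of 413 cases, beside 49.3% of all genes.

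The 501 genes bound by ETO2-GLIS2 only were seldom free of AML1-ETO. A strong AML1-ETO peak covered a start site of 244 of them (48.7%), but its summit lay farther than 1 kb from every start. Another 238 (47.5%) had an AML1-ETO summit near the start that was too weak to pass, and 19 (3.79%) had neither. The covering AML1-ETO peaks were broad, with a median width of 7354 bp, and their summits lay a median of 2308 bp from the nearest start. When any strong peak over a start was counted, ETO2-GLIS2-only genes numbered 250.

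The 19 genes with no AML1-ETO peak were weakly or moderately bound by ETO2-GLIS2, from 6.61-fold to 26.6-fold over background. The strongest was BBS12, which encodes a chaperonin-like protein of primary cilia, with a −log10 q of 80.3 at 48 h and 131 at 12 h. CNOT3 (a subunit of the CCR4-NOT deadenylase), CWC25 (a splicing factor), GDF9 (an oocyte growth factor) and the transmembrane protein gene TMEM135 were also among them. GDF9 shared its summit with UQCRQ, and FAM227A shared one with CBY1. Of the 19, 10 were also bound by ETO2-GLIS2 at 12 h, and 3 had an AML1-ETO summit of any strength at 12 h.

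The 4089 genes bound by AML1-ETO only divided otherwise. Of these, 2568 (62.8%) had a weaker ETO2-GLIS2 summit near a start and 1469 (35.9%) had no ETO2-GLIS2 peak there at all. A strong ETO2-GLIS2 peak covered the start of 50 (1.22%) and a weaker one that of 2. The full deposited lists also differed in length, with 104677 AML1-ETO and 29784 ETO2-GLIS2 peaks on these chromosomes. Among genes bound by neither, 22.7% had an AML1-ETO summit of any strength within 1 kb of a start, and 8.43% an ETO2-GLIS2 summit. The contrast between the unshared classes therefore cannot be told apart from list length. The 1469 genes had a median AML1-ETO fold enrichment of 9.79, and 21 of them had peaks among the best 10% of the AML1-ETO list.

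Short matches to the known recognition sequences differed between the classes. TGTGGT and TGCGGT, both Runt sequences, and TGGGGGG, the core of the GLIS site, were searched on both strands in the 200 bp around each promoter summit. A Runt match lay at 26.0% (24.5 to 27.5) of the AML1-ETO-only summits and at 9.76% (7.18 to 12.9) of the ETO2-GLIS2-only summits, beside 13.7% of all gene starts. A GLIS match lay at 3.11% (2.56 to 3.74) of the former and 12.2% (9.32 to 15.6) of the latter, beside 5.09% of all starts. A match is a description of the letters and not a measured site.

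At genes bound by both, the shares depended on whose summit was taken. Around the AML1-ETO summit 23.9% (22.6 to 25.2) of windows held a Runt match and 6.61% (5.90 to 7.37) a GLIS match, while around the ETO2-GLIS2 summit the shares were 16.7% (15.6 to 17.8) and 12.2% (11.3 to 13.2). Mean GC content was 66.8% at AML1-ETO-only summits, 68.8% at ETO2-GLIS2-only summits and 70.8% and 70.7% at the genes bound by both. Runt matches were rarer where GC was high. In windows of at most 67% GC, over 67% to 74% and over 74%, they lay at 33.8%, 24.3% and 12.6% of the AML1-ETO-only summits. At the ETO2-GLIS2-only summits the shares were 16.9%, 4.26% and 4.35%. At the AML1-ETO summits of genes bound by both the shares were 36.2% (33.7 to 38.9), 22.6% (20.5 to 24.9) and 15.2% (13.6 to 17.0). The intervals at AML1-ETO-only summits were 31.5 to 36.1, 21.7 to 27.0 and 10.4 to 15.0. At like GC the former shares were thus higher in the low and the high group and lower in the middle one, with overlapping intervals in each. The ETS sequence CCGGAAGT, a common promoter element, lay at 3.35% to 3.99% of the summits of all 4 kinds, beside 4.54% of all gene starts. Those starts differed by class. It lay at 7.83% of AML1-ETO-only starts, 6.99% of ETO2-GLIS2-only starts, 5.23% of starts bound by both and 2.62% of starts bound by neither.

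**Figure D2:**
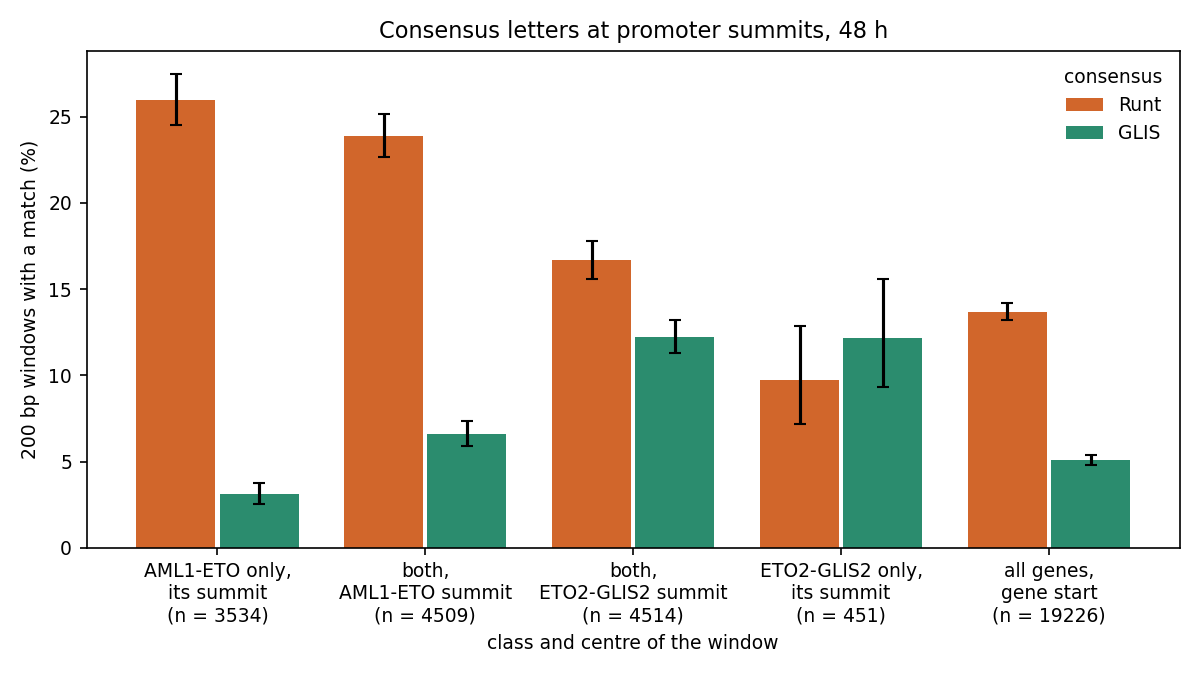
Bars give the percent of 200 bp windows around promoter summits that hold a Runt match (TGTGGT or TGCGGT) and a GLIS match (TGGGGGG), with exact 95% intervals, for the summit classes and for all gene starts. Without regard to GC, Runt matches are most frequent at AML1-ETO-only summits (26.0%) and GLIS matches at both kinds of ETO2-GLIS2 summits (12.2%).

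The sequences below show these letters at named genes. They are the 120 bp around the summit in GRCh37, given for the best-placed genes of a class whose window holds the match and no annotated exon, and they were chosen after the values were seen. Capitals mark the matches, and a match on the opposite strand is printed as its reverse complement. The first 3 are AML1-ETO-only genes with a Runt match: FAM193A (chr4:2537968-2538087, + strand), PPM1A, which encodes a protein phosphatase (chr14:60715722-60715841, + strand), and SNAPC3, which encodes a subunit of the small nuclear RNA activating complex (chr9:15422576-15422695, + strand).
FAM193A: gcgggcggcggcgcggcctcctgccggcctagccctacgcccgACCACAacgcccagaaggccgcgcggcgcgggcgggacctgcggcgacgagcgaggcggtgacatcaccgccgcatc
PPM1A: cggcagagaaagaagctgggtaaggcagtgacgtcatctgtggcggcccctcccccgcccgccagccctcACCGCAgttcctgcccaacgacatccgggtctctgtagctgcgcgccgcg
SNAPC3: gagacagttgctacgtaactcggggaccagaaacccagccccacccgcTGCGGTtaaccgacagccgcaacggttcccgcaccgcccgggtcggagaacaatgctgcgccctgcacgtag

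The next 3 are ETO2-GLIS2-only genes with a GLIS match: BCL3, which encodes a nuclear partner of NF-kB (chr19:45251705-45251824, + strand), ANP32A, which encodes a nuclear phosphoprotein (chr15:69110126-69110245, − strand), and CKAP2L, which encodes a mitotic spindle protein (chr2:113522424-113522543, − strand). The last 4 windows belong to 2 genes bound by both, shown because the Runt match lies at the AML1-ETO summit and the GLIS match at the ETO2-GLIS2 summit. In GZF1, a zinc finger gene, the summits lay apart (chr20:23342373-23342492 and chr20:23342130-23342249, + strand), and the ETO2-GLIS2 window holds a Runt match too. In NBEAL2, a gene needed for platelet alpha-granules, the windows nearly coincide (chr3:47029347-47029466 and chr3:47029350-47029469, + strand), so both matches lie in each.
BCL3: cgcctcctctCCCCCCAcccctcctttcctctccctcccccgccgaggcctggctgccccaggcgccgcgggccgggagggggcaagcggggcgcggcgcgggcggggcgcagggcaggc
ANP32A: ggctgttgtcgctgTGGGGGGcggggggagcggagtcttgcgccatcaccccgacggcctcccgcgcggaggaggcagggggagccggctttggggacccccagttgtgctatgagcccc
CKAP2L: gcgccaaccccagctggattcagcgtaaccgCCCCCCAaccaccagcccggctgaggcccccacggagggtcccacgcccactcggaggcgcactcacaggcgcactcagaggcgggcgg
GZF1 at the AML1-ETO summit: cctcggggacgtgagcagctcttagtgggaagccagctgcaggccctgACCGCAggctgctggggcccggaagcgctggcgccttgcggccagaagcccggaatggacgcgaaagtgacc
GZF1 at the ETO2-GLIS2 summit: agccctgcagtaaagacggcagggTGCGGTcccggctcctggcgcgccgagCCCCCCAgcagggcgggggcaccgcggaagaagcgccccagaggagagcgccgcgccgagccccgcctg
NBEAL2 at the AML1-ETO summit: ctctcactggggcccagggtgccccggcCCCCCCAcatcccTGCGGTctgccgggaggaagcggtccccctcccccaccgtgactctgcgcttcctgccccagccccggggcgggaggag
NBEAL2 at the ETO2-GLIS2 summit: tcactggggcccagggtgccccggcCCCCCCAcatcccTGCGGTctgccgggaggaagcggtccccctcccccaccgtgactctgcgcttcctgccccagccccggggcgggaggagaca

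Sharing followed the strength of the AML1-ETO peak. Promoter peaks were ranked by −log10 q within each list, and the place of a gene is its best peak's position in that ranking, given as a percent of the list where low is strong. Of the genes in the strongest 10% of the AML1-ETO list, 86.2% (83.8 to 88.4) were also bound by ETO2-GLIS2, and in the weakest 10% the share was 24.5% (21.8 to 27.5). The ETO2-GLIS2 list had no such slope: its share also bound by AML1-ETO was 93.2% (90.8 to 95.2) in the strongest 10% and 87.4% (84.3 to 90.0) in the weakest. The median AML1-ETO fold enrichment was 21.1 at genes bound by both and 11.6 at AML1-ETO-only genes, and the median ETO2-GLIS2 fold was 14.1 at genes bound by both and 11.6 at ETO2-GLIS2-only genes.

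**Figure D3:**
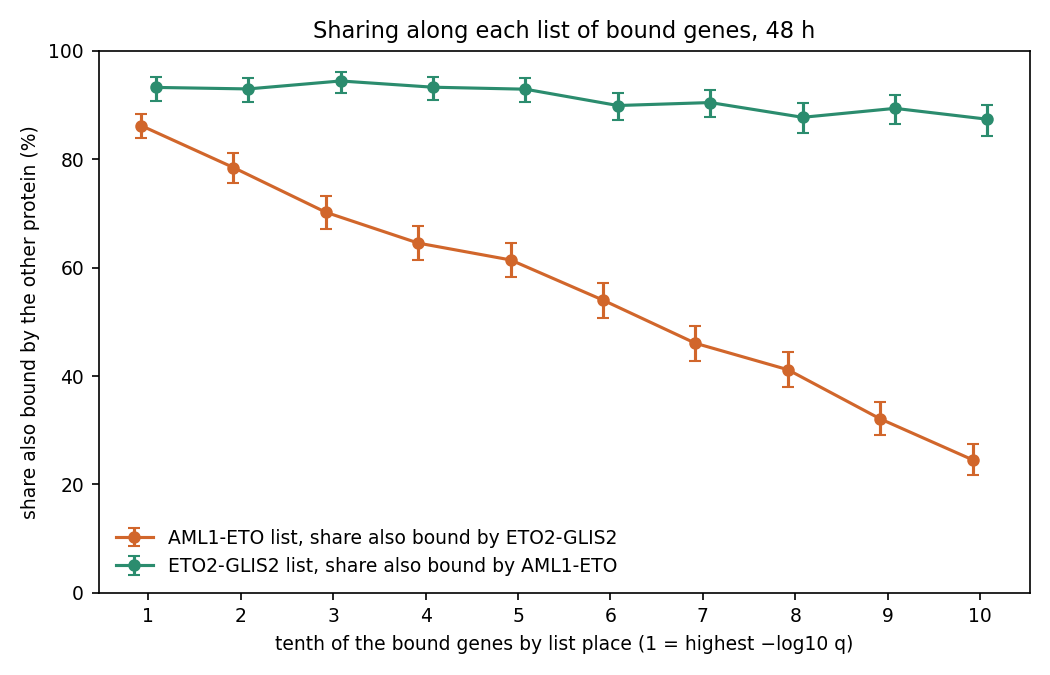
The y axis gives the percent of bound genes that the other protein also bound at 48 h, with exact 95% intervals, and the x axis gives the place in the protein's own list in steps of 10%, strongest first. The AML1-ETO line falls from 86.2% to 24.5%, and the ETO2-GLIS2 line stays between 87.4% and 94.4%.

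The classes also differed in the make-up of the genes. Genes bound by both had a median of 8 annotated start sites and those bound by neither 4, and a gene with more starts has more chances to be called. Of the 3017 genes with 1 start, 10.2% were bound by both and 77.9% by neither, while of the 4356 with 11 or more starts 41.9% were bound by both and 27.5% by neither. The distance from start to summit was similar at AML1-ETO-only genes and genes bound by both, with a median of 122 bp in each for AML1-ETO. For ETO2-GLIS2 it was 141 bp at genes bound by both and 165 bp at its own genes.

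Within the 5162 genes bound by both, the peaks lay together but their strengths were only loosely related. The AML1-ETO and ETO2-GLIS2 peaks overlapped at 93.5% of these genes and 92.4% had a start site near which both summits lay. The median gap between the summits was 177.5 bp, and the AML1-ETO peak was the wider at 4886 genes (94.7%). Across the 4556 pairs of peaks, Spearman's rank correlation was 0.288 for −log10 q and 0.271 for fold enrichment, as a description of 2 libraries that share the genome and the cell line. At 393 genes (7.61%) no start site lay near both summits, and at 301 of them the peaks did not overlap. Examples were the ETS factor gene ELF2, with 92924 bp between the summits, and the lactate transporter gene SLC16A3, with 14239 bp. Only the peak of highest −log10 q of each protein was compared, so other strong peaks of these genes may share a start.

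**Figure D4:**
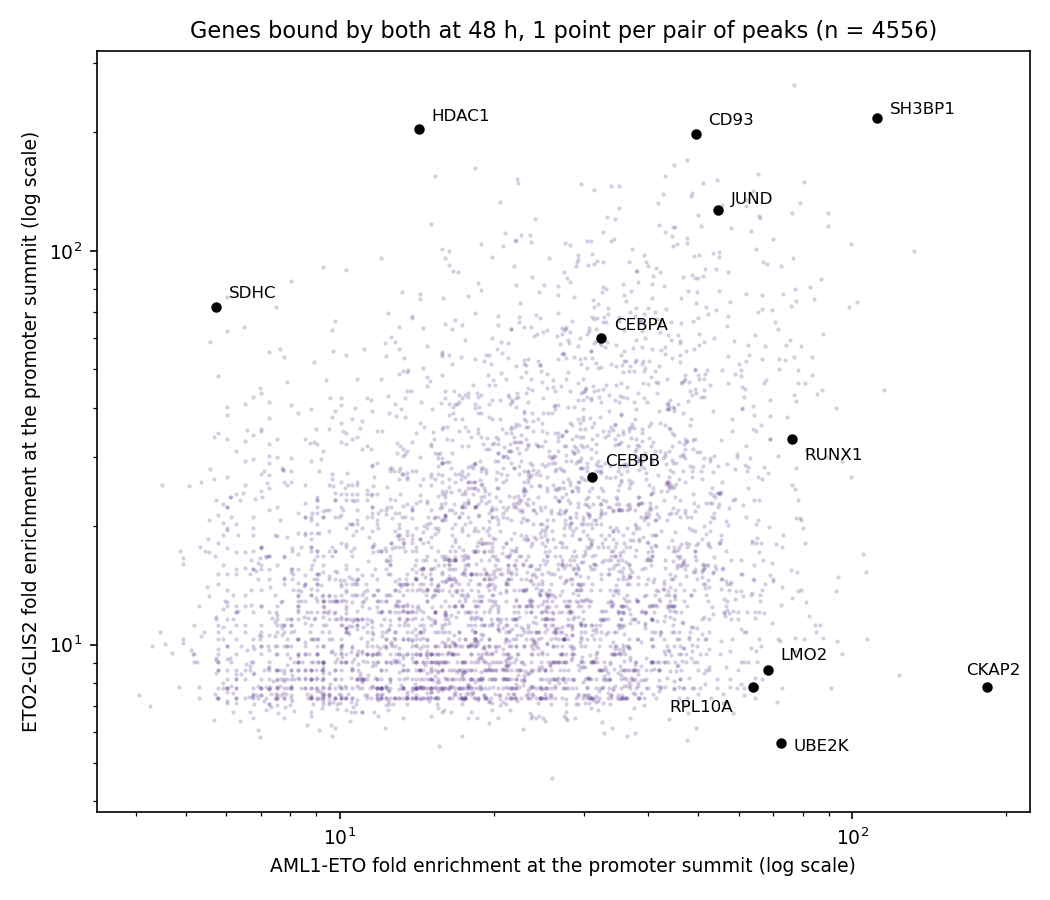
Each point is 1 of 4556 pairs of promoter peaks at genes bound by both at 48 h, with the AML1-ETO fold enrichment over background on the x axis and that of ETO2-GLIS2 on the y axis, both on log scales. HDAC1 (14.3-fold and 204-fold) and CKAP2 (184-fold and 7.80-fold) lie far from the middle of the cloud, and CEBPA and CEBPB lie within it.

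The 10 genes bound by both with the best sum of places are described first. PDK1, the kinase that restrains pyruvate dehydrogenase, had a −log10 q of 967 at 27.3-fold for AML1-ETO and 1252 at 55.0-fold for ETO2-GLIS2. SH3BP1, which encodes a Rac GTPase-activating protein, stood at 112-fold and 218-fold, and SH3TC1 at 89.7-fold and 125-fold. CD93, a receptor of myeloid and endothelial cells, stood at 49.5-fold and 199-fold. These genes were chosen for high places in both lists, so their values describe the choice.

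TNFRSF14, the HVEM receptor of the TNF receptor family, stood at 80.5-fold for AML1-ETO against 150-fold for ETO2-GLIS2, and DENND4B, which encodes a RAB exchange factor, at 77.0-fold and 263-fold. ATP11A, a phospholipid flippase gene, stood at 98.3-fold and 72.0-fold, KAZALD1 at 89.6-fold and 116-fold, and MFSD3 at 132-fold and 100.2-fold. KLF13, a Krüppel-like factor gene, stood at 87.1-fold and 84.7-fold and had 11 distal AML1-ETO and 7 distal ETO2-GLIS2 peaks. The best place of ETO2-GLIS2 was BCL2L1, which encodes the survival protein BCL-XL, at 149-fold for ETO2-GLIS2 and 22.3-fold for AML1-ETO. The best place of AML1-ETO was a summit at 68.7-fold that the records NBPF10, NOTCH2NLA, NOTCH2NLB, NOTCH2NLC, NOTCH2NLR and ENSG00000286185 shared, and since these are near-identical copies the gene is uncertain. The next was CKAP2, which encodes a spindle protein, at 184-fold for AML1-ETO beside 7.80-fold for ETO2-GLIS2.

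Some genes bound by both stood high in only 1 list. UBE2K, a ubiquitin-conjugating enzyme gene, had 72.5-fold for AML1-ETO against 5.62-fold for ETO2-GLIS2. RAD9A, a DNA damage checkpoint gene, stood at place 1.38% of the AML1-ETO list and 95.8% of the ETO2-GLIS2 list, but its summits lay 74066 bp apart at different start sites, so the gap compares 2 promoters. CNIH1, DLX2 and ZMYM4 had gaps of the same direction, with summits at most 367 bp apart. In the reverse direction, SDHC, a subunit of succinate dehydrogenase, had 5.74-fold for AML1-ETO beside 72.2-fold for ETO2-GLIS2, and UBA7, the activating enzyme of the ubiquitin-like ISG15, had a −log10 q of 10.2 and 212 at summits 3754 bp apart. SLC41A1, WDR43 and TLE6 had gaps of this direction as well.

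Few of the best places belonged to AML1-ETO-only genes. The first, the RNA helicase gene DHX9, took place 52 at 81.6-fold, and 4 of the 114 genes in the best 100 places were AML1-ETO only, followed by 77 of 582 in the best 500. The genes named next were the best placed with no ETO2-GLIS2 summit of any strength within 1 kb of a start. A strong ETO2-GLIS2 peak nevertheless covered the start of 4 of the best 10, with its summit farther off. These were FAM193A (55.7-fold for AML1-ETO, under an ETO2-GLIS2 peak of 12.0-fold with its summit 1071 bp from the nearest start), HSPE1-MOB4 (57.2-fold, under 20.1-fold at 1064 bp), INKA1 (65.0-fold, under 58.6-fold at 2386 bp) and ENSG00000249141, a gene with no symbol (61.0-fold, under 39.9-fold at 1166 bp). INKA1 encodes an inhibitor of the kinase PAK4, and the peak over its start is the one called at UBA7. MARCHF3, a membrane ubiquitin ligase gene (59.3-fold), FRA10AC1 (56.0-fold) and ZNF529 (54.3-fold) had no ETO2-GLIS2 peak over a start. NMBR, the neuromedin B receptor, and VTA1, a protein of multivesicular bodies, shared a summit at 52.0-fold without such a peak, so which of them is bound was not resolved.

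ETO2-GLIS2-only genes were likewise few among the best places of their own list, and the best 10 of them lay under a strong AML1-ETO peak. The first, MXD3, which encodes a MAX partner that opposes MYC, took place 33 at 141-fold, and 6 of 109 genes in the best 100 places were ETO2-GLIS2 only, followed by 38 of 555 in the best 500. A 15529 bp AML1-ETO peak of 45.2-fold covered the MXD3 start with its summit 4338 bp away. MICALL2 (133-fold, an actin and RAB effector), PLCB2 (122-fold, a phospholipase C of blood cells), AGRN (117-fold, agrin) and SMAD6 (104-fold, an inhibitor of BMP signalling) lay under AML1-ETO peaks of 17.5-fold to 56.0-fold with summits 1029 to 1440 bp from the start. S100A6, a calcium-binding protein gene, stood at 94.0-fold under a 20212 bp AML1-ETO peak, and GRK2, a kinase of G-protein-coupled receptors, at 63.6-fold under one of 30928 bp. SDCCAG8, a centrosomal protein gene, stood at 94.0-fold, and FKBP2 and ENSG00000286264 shared a summit at 92.2-fold.

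Transcription factor genes of myeloid cells were mostly bound by both proteins. Of 16 in the list, 10 were bound by both, 2 (EGR2 among them) by AML1-ETO only, 1 (SPI1) by ETO2-GLIS2 only and 3 (CEBPD, EGR1 and MAF) by neither. Over all genes these shares were 26.8%, 21.3%, 2.61% and 49.3%. RUNX1, the source of the Runt domain in AML1-ETO, stood at 76.3-fold for AML1-ETO against 33.2-fold for ETO2-GLIS2. CEBPA, the factor that drives granulocytic differentiation, stood at 32.4-fold and 59.9-fold, and CEBPB, its relative in monocytes and macrophages, at 31.1-fold and 26.7-fold. SPI1, which encodes the myeloid master regulator PU.1, had an ETO2-GLIS2 promoter peak of 46.2-fold at 48 h and 64.4-fold at 12 h, and an AML1-ETO peak of 18.6-fold and 6426 bp covered its start with the summit 1535 bp away. The call of SPI1 as ETO2-GLIS2 only thus rests on the position of a summit.

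Among 12 factors of stem cells and megakaryocytes, 5 (ETV6, HHEX, LMO2, MEIS1 and ZFPM1) were bound by both, 2 (ERG and GATA2) by AML1-ETO only, 2 (FLI1 and NFE2) by ETO2-GLIS2 only and 3 by neither. The shares of all genes were 26.8%, 21.3%, 2.61% and 49.3%. LMO2, a bridging protein of blood stem-cell complexes, stood at 68.5-fold for AML1-ETO beside 8.62-fold for ETO2-GLIS2. FLI1, an ETS factor of megakaryocytes, stood at 23.3-fold for ETO2-GLIS2 under a 7381 bp AML1-ETO peak of 18.0-fold. At the promoter the products of that lineage differed from its factors: of 16 megakaryocyte and platelet genes, 15 were bound by neither. The other, F2RL3, which encodes the thrombin receptor PAR4, stood at 31.4-fold for AML1-ETO against 143-fold for ETO2-GLIS2. Away from the promoter, 7 of the 16 had a distal AML1-ETO peak (summit over 1 kb from every start), beside 33.0% of all genes. A distal ETO2-GLIS2 peak was given to 1 of them, beside 14.7% of all genes.

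AP-1 factors, immediate early regulators that dimerise on DNA, were bound by both at 5 of 11 genes, by AML1-ETO only at 3 and by ETO2-GLIS2 only at 2, beside 26.8%, 21.3% and 2.61% of all genes. JUND stood at 54.7-fold for AML1-ETO beside 127-fold for ETO2-GLIS2, whereas JUNB (44.6-fold) and FOS (9.57-fold) were ETO2-GLIS2 only and lay under AML1-ETO peaks of 49.7-fold and 27.9-fold. The same layout was found at ID1 (9.59-fold) and ID2 (30.5-fold), inhibitors of E proteins, whose covering AML1-ETO peaks had 23.1-fold and 20.1-fold and summits 5594 and 2431 bp from the start. In the HOX clusters, HOXA3, HOXA7 and HOXA9 lay under a single AML1-ETO peak of 35043 bp and 56.6-fold, with ETO2-GLIS2 at 23.5-fold for HOXA7 and 14.6-fold for HOXA9. Of 39 HOX genes, 5 were bound by both, 4 by AML1-ETO only, 4 by ETO2-GLIS2 only (10.3%, beside 2.61% of all genes) and 26 by neither.

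The ETO family and its corepressors were bound by both at 4 of 10 genes (HDAC1, HDAC2, SIN3A and SIN3B) and by AML1-ETO only at 4 (CBFA2T2, CBFA2T3 and NCOR1 among them). CBFA2T3 is the source of the ETO2 part. HDAC1, the histone deacetylase of these complexes, took place 0.122% of the ETO2-GLIS2 list at 204-fold and place 58.9% of the AML1-ETO list at 14.3-fold. Of 16 histone deacetylases and sirtuins, 9 were bound by both and 4 by AML1-ETO only. Of 25 lysine methyltransferases and demethylases, 13 were bound by both and 7 by AML1-ETO only, among the former KDM5B at 93.8-fold and 14.9-fold and among the latter KDM7A at 62.0-fold. Of all genes, 26.8% were bound by both and 21.3% by AML1-ETO only. These lists had medians of 16, 16 and 13 start sites, in the order given, beside 5 for all genes. Of genes with 11 or more starts, 41.9% were bound by both and 27.8% by AML1-ETO only.

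Signalling lists had shares bound by both above the 26.8% of all genes, but by unlike amounts. Dual-specificity phosphatases, at 6 of 22 (27.3%), were close to it. The NF-kB and MAP kinase lists had medians of 9 and 10 start sites, beside 5 for all genes. Of genes with 6 to 10 starts, 31.6% were bound by both. NF-kB factors and their feedback inhibitors were bound by both at 9 of 14, led by NFKBIA, the inhibitor IkB-alpha, at 82.8-fold for AML1-ETO against 81.0-fold for ETO2-GLIS2. BCL3 was ETO2-GLIS2 only at 75.0-fold, under a 9269 bp AML1-ETO peak of 78.5-fold. The MAP kinase cascade was bound by both at 23 of 42 and by AML1-ETO only at 10 (23.8%, beside 21.3% of all genes). MAP3K8, the kinase TPL2, stood at 67.2-fold and 28.2-fold. RHOU, which encodes a small GTPase, was bound by both at 28.1-fold and 21.0-fold.

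Genes of the cell cycle differed by list. Replication licensing genes were bound by both at 6 of 20 and by AML1-ETO only at 9, and kinesins at 8 and 9 of 38, beside 26.8% and 21.3% of all genes. Of 22 G1 cyclins, cyclin-dependent kinases and inhibitors, 15 were bound by both, 3 by AML1-ETO only and 2 by ETO2-GLIS2 only. CDKN1A, the p21 inhibitor, stood at 38.5-fold for AML1-ETO beside 29.5-fold for ETO2-GLIS2, and CDKN1B, the p27 inhibitor, at 30.4-fold and 106-fold. Of 16 genes of the BCL2 family, 8 were bound by both and 1 by AML1-ETO only. BBC3, which encodes the cell death protein PUMA, was ETO2-GLIS2 only at 53.0-fold under an AML1-ETO peak of 48.7-fold, as was BMF at 14.9-fold under a peak of 18730 bp.

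Lists of the differentiated myeloid cell were read beside 26.8% of all genes bound by both and 21.3% by AML1-ETO only. Of 18 granule proteins 8 were bound by both and 5 by AML1-ETO only, with CFD (complement factor D) at 34.4-fold for AML1-ETO against 121-fold for ETO2-GLIS2 and CAMP (cathelicidin) at 45.1-fold and 23.7-fold. Of 22 monocyte surface receptors 3 (13.6%) were bound by both and 8 (36.4%) by AML1-ETO only, among them ITGAM (CD11b) at 18.3-fold and CSF1R at 12.3-fold. CD68 was ETO2-GLIS2 only at 11.2-fold. Chemokines and their receptors were bound by both at 2 of 62 and by AML1-ETO only at 11, among them CCR1 at 21.4-fold. Of 27 interferon-stimulated genes 12 were bound by both and 6 by AML1-ETO only.

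AML1-ETO only was the most frequent class over the pooled housekeeping lists, with 189 of 438 genes (43.2%) beside 21.3% of all genes, while 125 were bound by both, 13 by ETO2-GLIS2 only and 111 by neither. Of 79 mitochondrial ribosomal protein genes, 19 were bound by both, 40 by AML1-ETO only, 4 by ETO2-GLIS2 only and 16 by neither, and of 83 cytosolic ones the numbers were 18, 32, 3 and 30. RPL10A stood at 64.0-fold for AML1-ETO beside 7.78-fold for ETO2-GLIS2, RPL36AL was AML1-ETO only at 60.4-fold, and MRPL34 ran the other way at 66.0-fold and 122-fold. Of 57 splicing factor genes 22 were bound by both and 27 by AML1-ETO only, with HNRNPU at 106-fold and 15.3-fold and SRSF5 AML1-ETO only at 52.4-fold. Replication-dependent histone genes were AML1-ETO only at 31 of 64 and bound by both at 7. Paralogs with near-identical sequence, such as EIF3CL among the translation initiation factors, are uncertain.

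The lists were then pooled. Over 10 housekeeping lists with 438 genes, 314 were bound by AML1-ETO and 39.8% (34.4 to 45.5) of these also by ETO2-GLIS2, while over 10 lists of regulators (transcription factors, signalling and G1 control) with 226 genes, 154 were bound by AML1-ETO and 71.4% (63.6 to 78.4) of these also by ETO2-GLIS2. For all genes the share was 55.8%, with 10 of 10 housekeeping lists below it and 9 of 10 regulator lists above it. Cut into 3 equal parts by AML1-ETO place, from strong to weak, the shares were 60.7%, 49.5% and 18.6% for housekeeping genes, 89.9%, 66.0% and 40.6% for regulators and 77.4%, 56.7% and 33.5% for all genes. With lists of equal length they were 53.6%, 79.3% and 67.3%. With every deposited peak counted the housekeeping share was 75.0% and that of all genes 73.9%, so that order turned, while the regulators stood at 85.1%. The regulator lists were pooled after their values had been seen, and the contrast depends on which lists are pooled. Of 221 AML1-ETO-bound ZNF genes, a large family of zinc finger genes, 48.9% were also bound by ETO2-GLIS2, and with the ZNF, KLF and SP, FOX, SOX and HOX lists added to the pool the share was 58.5% (53.7 to 63.3) of 422 genes, close to the 55.8% of all genes.

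The covering AML1-ETO peaks were counted over the same pools, of which the regulator pool was chosen after its values were seen. Of 14 regulators bound by ETO2-GLIS2 only, 11 (78.6%, 49.2 to 95.3) lay under a strong AML1-ETO peak with a distant summit. The numbers were 1 of 13 for housekeeping genes (7.69%, 0.195 to 36.0) and 244 of 501 in all (48.7%, 44.2 to 53.2). These pools are small, and the wider pool of regulators was not examined here. Over 7 lists of genes of other tissues, 699 of 711 were bound by neither, olfactory receptors at 410 of 413, beside 49.3% of all genes.

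Distal peaks were then given to genes. A distal peak passed the same threshold with its summit over 1 kb from every start site, and it was given to the gene with the nearest start up to 100 kb away. AML1-ETO had 15645 distal peaks and ETO2-GLIS2 5311, and 6340 genes (33.0%) had at least 1 of the former and 2820 (14.7%) at least 1 of the latter. Both were present at 2608 genes, which is 92.5% (91.4 to 93.4) of the genes with ETO2-GLIS2 distal peaks and 41.1% of those with AML1-ETO distal peaks.

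Genes bound by both at the promoter had more distal peaks than genes bound by AML1-ETO only or by neither. The mean number of distal AML1-ETO peaks was 1.19 (1.16 to 1.22) at genes bound by both, 1.20 at ETO2-GLIS2-only genes, 0.743 at AML1-ETO-only genes and 0.450 at genes bound by neither. For distal ETO2-GLIS2 peaks the means were 0.434, 0.661, 0.226 and 0.145. ETO2-GLIS2-only genes thus had the highest distal ETO2-GLIS2 mean. Their distal AML1-ETO mean is in part set by how the class is defined. At 244 of the 501 genes a strong AML1-ETO peak covered a start with its summit over 1 kb from every start of that gene. Such a summit can count as a distal peak, so this mean is not a separate observation. The intervals are Poisson intervals on counts. Within 3 groups of equal size by gene length, the distal AML1-ETO mean kept its order of both, AML1-ETO only and neither. ETO2-GLIS2-only genes stood above genes bound by both in each group. From short to long genes the means were 0.893 beside 0.522, 0.934 beside 0.849 and 2.06 beside 1.94. Regulators averaged 1.79 AML1-ETO and 0.68 ETO2-GLIS2 distal peaks and housekeeping genes 0.38 and 0.14.

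**Figure D5:**
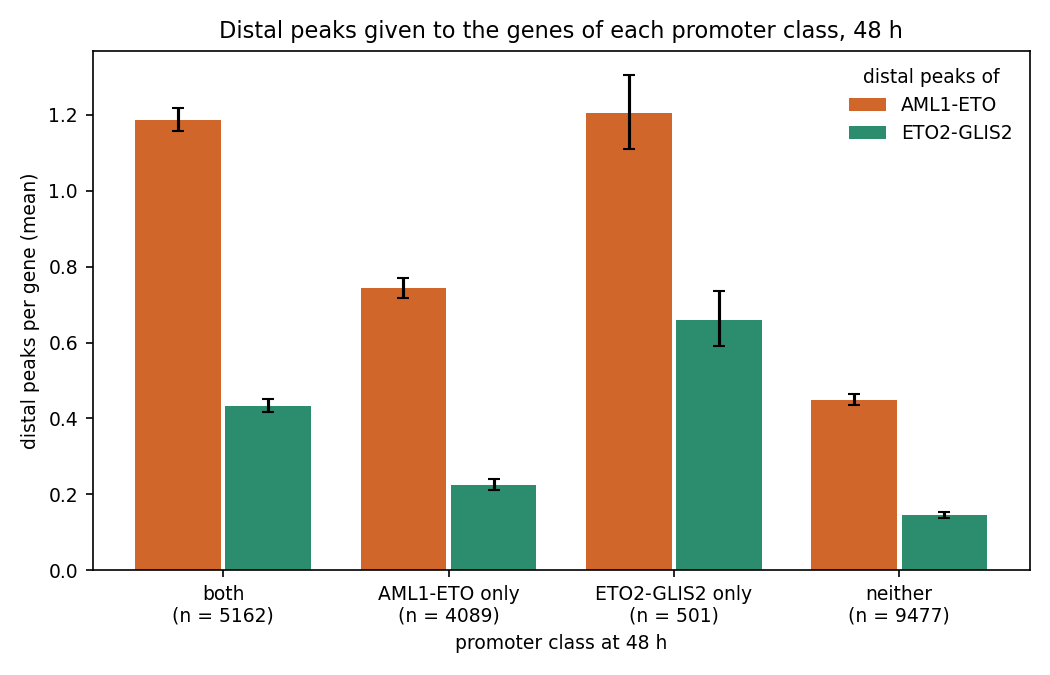
Mean distal peaks per gene at 48 h, with 95% Poisson intervals, are given for the 4 promoter classes and each protein. The AML1-ETO means are 1.19 for both, 0.743 for AML1-ETO only, 1.20 for ETO2-GLIS2 only and 0.450 for neither, and those of ETO2-GLIS2 are lower in every class.

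Among the genes with most distal AML1-ETO peaks were the integrin gene ITGA6 (20), RUNX1 (20), PREX1 (19), a Rac exchange factor gene, and RXRA (18), the retinoid X receptor gene. For ETO2-GLIS2 they included ZMIZ1 (25), a coactivator gene, TSNARE1 (13), GSE1 (12) and MAD1L1 (12). ZMIZ1 was AML1-ETO only at the promoter, at 24.6-fold, with an ETO2-GLIS2 summit there below the threshold (−log10 q 2.59). At 5 genes ETO2-GLIS2 had at least 5 distal peaks more than AML1-ETO: ZMIZ1 (25 and 13), TNFRSF1B (9 and 4), SH3TC1 (8 and 2), CEBPA (7 and 2) and RARA (7 and 2). The reverse held at 309 genes. CEBPB had 7 distal ETO2-GLIS2 and 6 AML1-ETO peaks, RHOU had 1 and 8, and RUNX1 had 7 and 20.

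The classes at 48 h were set beside the lists at 12 h, which are other libraries of the same clones. Of the genes bound by both at 48 h, 85.8% (84.8 to 86.8) were bound by AML1-ETO at 12 h and 81.7% by ETO2-GLIS2, beside 37.5% and 26.0% of all genes. Of the AML1-ETO-only genes, 61.4% were bound by AML1-ETO at 12 h and 8.85% by ETO2-GLIS2. Of the ETO2-GLIS2-only genes, 69.3% were bound by ETO2-GLIS2 and 28.9% by AML1-ETO, and of the genes bound by neither 1.41% and 0.812% were bound by AML1-ETO and ETO2-GLIS2. Genes bound by both thus had the highest shares for each protein at 12 h, and 3696 (71.6%), 2244 (54.9%) and 234 (46.7%) genes bound by both, by AML1-ETO only and by ETO2-GLIS2 only were in the same class at 12 h. CEBPB was bound by AML1-ETO at 7.64-fold at 12 h and 31.1-fold at 48 h, and by ETO2-GLIS2 at 26.4-fold and 26.7-fold, while RUNX1 stood at 52.6-fold and 76.3-fold for AML1-ETO and at 27.3-fold and 33.2-fold for ETO2-GLIS2.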

How the data were processed

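ChIP-seq reads were, per the study's methods and the submitters' processing notes, aligned by the authors to hg19 with Bowtie2 2.2.9 and SAMtools 1.7, and peaks were called against input with MACS2 2.1.1.20160309, and deepTools was also listed. Caller settings and any removal of duplicates are not given in the sources used here. The deposited peak lists, 1 for each ChIP library and without pooling, hold the position, the summit offset, a score, the fold enrichment (a linear ratio over background), and the −log10 p-value and −log10 q-value from the authors' peak caller. They hold no read numbers, and the read totals that the study states were not used in any computation, so fold and q were compared by place within a list. The groups were taken from titles, since the treatment label of the 12 h samples names 48 h. 0 columns were left unmapped.

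Start sites came from GENCODE 44 lifted to GRCh37, and sequence from GRCh37. A gene's place is that of its promoter peak of highest −log10 q. Scripts used Python 3.11.15, numpy 2.4.6, pandas 2.3.3 and scipy 1.17.1. The calls were tested on simulated peak lists and with bedtools 2.31.1, from which 0 genes differed. Genes were named by rank: the 10 best genes bound by both and the 10 best of each unshared class (for AML1-ETO, without any ETO2-GLIS2 summit), the 5 largest gaps in place in each direction, the 5 with most distal peaks, the best up to 4 members of each class in a gene list, the genes the study shows and those next to the threshold. Other members of a class or list were named after their values were seen. The members and the 55 gene lists (41 by symbol pattern, and 244 of 248 hand-listed symbols found) were chosen with earlier results of these data known, and the alternatives for pooled lists were chosen after seeing the data. A few genes and 1 gene family that these rules name are not reported here.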

Additional observations from a re-analysis of the deposited data

How the results depend on the processing

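No paired analysis was possible because each protein and time had 1 library and no replicate number, and for the same reason no replicate could be left out. Of 38 recomputed values of the 6 main results, 18 stayed within 1.5 times the count or within the interval and 20 moved. Genes bound by both numbered 8682 with every deposited peak and 3277 at a −log10 q of at least 20. With lists of equal length there were 1968 AML1-ETO-only and 1604 ETO2-GLIS2-only genes, and the latter numbered 250 when a peak had only to cover a start and 910 at 12 h. The share of ETO2-GLIS2 genes also bound by AML1-ETO, 91.2%, was 93.9% at a −log10 q of at least 5, 95.9% with every peak, 87.1% at 20, 71.7% with equal lengths, 94.4% within 3 kb, 95.2% with covering peaks, 86.4% with the 5′ end of the gene as its only start and 81.8% at 12 h. Distal peaks per gene bound by both became 2.38 (AML1-ETO) and 0.720 (ETO2-GLIS2) at a −log10 q of at least 5, 0.781 and 0.288 when given only to the gene whose body they lie in, and 1.00 and 0.558 at 12 h. Apart from the alternatives' own construction, the cause of these moves was not tested. No list was scaled for depth, so a gene called bound by neither may be bound below detection.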

Other observations

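A few promoters had a −log10 q far above what their fold enrichment would give elsewhere in the list. Over the 7987 promoter peaks of AML1-ETO the median −log10 q per unit of fold was 3.78, and at PDK1 it was 35.4, the highest of all. In the ETO2-GLIS2 list the median was 2.22, and PDK1 was again highest at 22.8. ITGA6 stood at 31.1 in the AML1-ETO list, with a −log10 q of 996 at 32.1-fold. Ranked by fold instead, PDK1 stood at 25.5% of the AML1-ETO genes and 6.48% of the ETO2-GLIS2 genes, and ITGA6 at 18.7% of the AML1-ETO genes.

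A few genes whose promoters only AML1-ETO passed the threshold for had many distal ETO2-GLIS2 peaks. As a class, AML1-ETO-only genes did not have more of them. Their mean was 0.226 beside 0.253 for all genes, and 0.293% had 6 or more beside 0.395% of all genes. Of the 4089 AML1-ETO-only genes, 19 had at least 5 distal ETO2-GLIS2 peaks. Besides ZMIZ1 they included CBFA2T3, which encodes ETO2 itself, FURIN, a protease of the secretory pathway, FCGR2A, an Fc receptor of myeloid cells, and SEMA4D, a semaphorin. Of the genes bound by neither protein at the promoter, 24.4% had at least 1 distal AML1-ETO peak and 9.81% at least 1 distal ETO2-GLIS2 peak, and 7106 genes (37.0%) had neither a promoter nor a distal peak of either protein.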
